A study of Mus musculus with 6 samples.

Results

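DNA replication and nucleotide supply are described here through 49 genes that encode the machinery that licenses origins, unwinds and copies DNA, packages the copy and makes deoxynucleotides. The 49 symbols were each matched to 1 of the 37991 Ensembl gene identifiers in the count files, and all 49 passed the filter on low counts that left 16231 genes for testing. Messenger RNA was sequenced from mouse group 2 innate lymphoid cells (ILC2), lymphocytes that make type 2 cytokines without an antigen receptor, sorted as lineage-negative cells with Thy1 and ST2 on their surface. All 6 libraries came from Id1tg/tg mice, homozygous for an Id1 transgene under the proximal lck promoter and bred from FVB/N to C57BL/J. Id1 protein blocks E proteins, transcription factors of lymphocytes. The 3 groups have 2 libraries each: ILC2 straight from the thymus, ILC2 straight from the mesenteric lymph nodes (fresh MLN), and MLN ILC2 cultured over 1 week with the cytokines IL-7, IL-25 plus IL-33, 10 ng/ml of each (cultured MLN). No group lacked the transgene, ages are not given, and the lck promoter is one used to drive genes in developing T cells. Culture differs from fresh MLN in time outside the animal, in cytokines and in the level of Id1 RNA given below. These cannot be told apart.

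A cell copies its genome once per division. In G1 phase the origin recognition complex (ORC), Cdc6 and Cdt1 load the ring-shaped MCM2-7 helicase onto DNA, a step called licensing that geminin (Gmnn) blocks later in the cycle. In S phase Cdc45 and the GINS complex join the ring and switch it on, polymerase alpha with primase starts each strand, and polymerases epsilon and delta extend it with the clamp Pcna. Ribonucleotide reductase (Rrm1 with Rrm2), thymidylate synthase (Tyms) and thymidine kinase (Tk1) supply the deoxynucleotides. Many of these genes are transcribed in late G1 and S phase by E2F factors, while resting lymphocytes hold most of them low.

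The libraries held between 35280692 and 40578264 counts. Id1 itself lay between 422 and 469 CPM (counts scaled to library size) in the 4 libraries of fresh cells and at 1.48 and 1.19 CPM in the cultured ones, a value that counts the endogenous gene and the transgene together. ILC2 markers (10 genes) summed to between 8340 and 15500 CPM in every library and none was at 0. By log2 fold change against fresh MLN, 2 of them were higher in thymus (Thy1 at 1.12, Icos at 0.76). In thymus 5 were lower (Klrg1 at -1.33, Id2 at -0.885, Il17rb at -0.81, Il7r at -0.67, Il1rl1 at -0.35). In culture 6 of these 10 markers were higher than in fresh MLN, among them Gata3 (0.78) and Il2ra (3.36). Il2ra alone gave 7901 and 7761 CPM there. The other 4 were lower in culture (Il17rb at -4.69, Rora at -2.07, Thy1 at -1.57, Il7r at -1.42). Of all genes tested, 25.3% were higher and 22.0% lower in thymus than in fresh MLN. For culture these shares were 39.4% and 38.1%, so the 4 lower markers are near the share of all genes. T cell and thymocyte markers (12 genes) summed to 192 to 194 CPM in thymus, 161 to 167 in fresh MLN and 79.7 to 90.3 in cultured MLN, with Ptcra at 0 counts in thymus and Rag1 and Rag2 at 0 in culture. Against fresh MLN, 7 of the 11 tested were higher in thymus and 1 was lower. In culture 0 were higher and 6 lower. Those higher in thymus included Cd4 at 5.13 and 6.49 CPM, Dntt at 1.06 and 0.638, Rag1 at 0.764 and 0.293 and Rag2 at 0.641 and 0.559. Themis, also higher in thymus, was 88.97 and 87.31 CPM there against 46.85 and 46.9 in fresh MLN. The one lower in thymus was Cd3e, at 73.9 and 72.8 CPM against 90.2 and 101.3. The part of such cells in the results below was not tested. Mki67, a gene of cycling cells that is no member of the set, reached 710 and 616 CPM in thymus and 580.0 and 600.2 in cultured MLN, with 22.5 and 19.0 in fresh MLN.

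Promoter sequence is shown for 6 members because a motif, the E2F site, was found in many of the set. The sequence was not used to choose members, but many of these genes are known to be transcribed by E2F factors. The share with a match is therefore not independent of the choice. The canonical E2F site was searched as TTTGGCGC, TTTCCCGC, TTTCGCGC and TTTGCCGC on both strands of RefSeq windows that reach from 250 bases before to 50 after each start site (GRCm38.p6). It was found in 16 of the 41 members with a window (39.0%) and in 704 of 27025 genes with a window (2.6%). Below are the 160 bases before the start site, 5′ to 3′ on the gene's strand, with E2F matches in capitals, of 4 genes that rose in both comparisons with fresh MLN (Mcm6, Mcm5, Cdc6, Pola1) and of Orc3, which did not rise in either. In Rrm2, which rose most of the nucleotide genes and holds no match, the capitals mark its CCAAT box.
Mcm6, chr1:128359706-128359865, minus strand: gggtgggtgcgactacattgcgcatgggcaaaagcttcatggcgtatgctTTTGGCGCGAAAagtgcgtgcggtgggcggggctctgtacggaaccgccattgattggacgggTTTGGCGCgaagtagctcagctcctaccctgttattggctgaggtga
Mcm5, chr8:75109349-75109508, plus strand: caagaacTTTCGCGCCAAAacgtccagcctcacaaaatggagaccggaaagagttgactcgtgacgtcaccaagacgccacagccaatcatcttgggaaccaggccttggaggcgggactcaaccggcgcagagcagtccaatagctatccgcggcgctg
Cdc6, chr11:98907991-98908150, plus strand: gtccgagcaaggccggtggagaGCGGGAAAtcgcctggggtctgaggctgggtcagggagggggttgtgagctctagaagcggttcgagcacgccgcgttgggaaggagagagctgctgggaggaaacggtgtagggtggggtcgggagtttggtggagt
Pola1, chrX:93632156-93632315, minus strand: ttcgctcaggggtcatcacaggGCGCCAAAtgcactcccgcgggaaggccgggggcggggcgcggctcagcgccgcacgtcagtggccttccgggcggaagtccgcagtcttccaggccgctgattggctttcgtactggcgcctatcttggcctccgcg
Orc3, chr4:34614943-34615102, minus strand: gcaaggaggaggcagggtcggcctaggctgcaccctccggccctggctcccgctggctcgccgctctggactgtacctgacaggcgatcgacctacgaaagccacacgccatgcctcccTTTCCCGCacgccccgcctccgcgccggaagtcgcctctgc
Rrm2, chr12:24708094-24708253, plus strand: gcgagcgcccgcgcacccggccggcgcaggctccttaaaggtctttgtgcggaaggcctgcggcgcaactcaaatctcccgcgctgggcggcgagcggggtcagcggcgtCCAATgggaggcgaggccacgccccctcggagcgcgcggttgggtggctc
The first capital run of Mcm6 and the run of Mcm5 each hold 2 overlapping matches, 1 on each strand. By role, a match lay in 8 of 13 licensing genes, 4 of 7 polymerase genes, 2 of 6 genes of fork protection and lagging strand, 1 of 3 of helicase activation, 1 of 5 of clamp and loader, 0 of 5 of nucleotide supply and 0 of 2 of chromatin assembly. CCAAT boxes (CCAAT, both strands) lay in 25 of the 41 members (61.0%) against 41.1% of all genes, and the CHR element of late cell cycle genes (TTTGAA, both strands) in 5 (12.2%) against 20.2%. A match is a run of letters and not a measured binding site. Members with an E2F match ran from Orc3, at a log2 fold change of -0.05 in thymus against fresh MLN, to Clspn at 4.88, with a median of 1.63, and the 25 members with a window and no match ran from Orc4 at -0.27 to Mcm10 at 4.65, with a median of 1.17. In culture against fresh MLN the members with a match ran from -0.26 to 4.88 (median 1.04) and those without from -1.34 to 4.88 (median 1.24).

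Replication genes were far higher in thymus and in cultured MLN than in fresh MLN. In thymus 47 of the 49 were called, against 47.3% of all genes tested. Of these 46 were higher, against 25.3% of all genes, and 1 was lower (Orc4), against 22.0%. In culture 44 were called, against 77.6%. Here 41 were higher, against 39.4% of all genes, and 3 were lower (Orc3, Orc4, Pold3), against 38.1%. The median log2 fold change of the members was 1.44 in thymus, where that of all genes was 0, and 1.20 in culture, where that of all genes was -0.01. Both thymus libraries lay above both fresh ones for 46 members (37.2% of all genes) and below them for 2 (35.6%), and both cultured libraries lay above for 43 (44.6%) and below for 4 (44.6%). These comparisons share the fresh MLN libraries, so the 41 members higher in both are given as a count alone. In the sorted bulk cells a larger share of cells in S phase and more RNA per cell cannot be told apart.

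The size of the change varied widely, also among subunits of 1 complex. At least 8-fold higher in thymus were 8 members (Cdc45, Cdc6, Chaf1a, Clspn, Gins1, Gins2, Mcm10, Rrm2), and in culture the same without Gins1, which makes 7. A further 23 members were between 2-fold and 8-fold higher in each comparison, 18 in each differed by less than 2-fold either way, and Orc4 was more than 2-fold lower in culture. In a test against a 2-fold change 27 members were higher in thymus (5.53% of all genes) and 29 in culture (19.6%). The plot of CPM by library shows the gap for each gene.

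**Figure D1:**
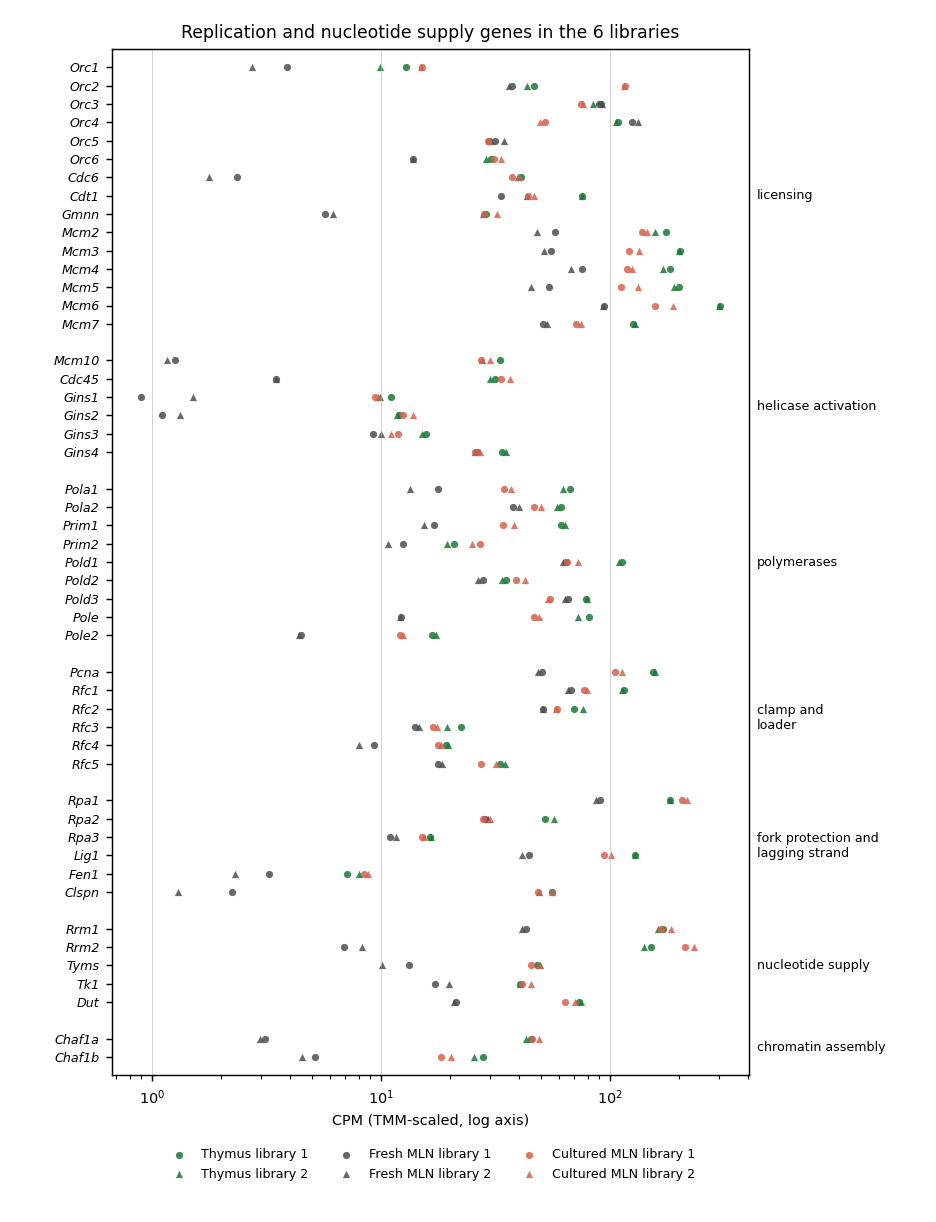
CPM (log axis) of the 49 genes in each of the 6 libraries, grouped by role; circles are library 1 and triangles library 2 of a group. Fresh MLN libraries lie left of the others for most genes, by the widest gap for Mcm10, Cdc6, Clspn and Rrm2, and to the right for Orc4.

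Licensing genes (15) gave 12 higher, 1 lower and 2 not called in thymus, and 12 higher, 2 lower and 1 not called in culture, with median log2 fold changes of 1.30 and 1.24. The ring loader Cdc6 moved most. Cdc6 was 41.1 and 39.6 CPM in thymus, against 2.36 and 1.78 in fresh MLN and 37.2 and 40.2 in culture. That is a log2 fold change of 4.28 ± 0.12 (SE; adjusted p = 2.24e-11) in thymus and 4.22 ± 0.12 (adjusted p = 2.89e-12) in culture, from 2 libraries per group. Its partner Cdt1 behaved otherwise. Cdt1 was 33.6 and 43.4 CPM in fresh MLN, 75.8 and 75.4 in thymus and 43.8 and 46.8 in culture, so the second fresh library lay just under the first cultured one. Cdt1 was higher in thymus (0.98 ± 0.10), but its call in culture (0.24 ± 0.10, adjusted p = 0.0474) was lost without the first fresh MLN library (0.06, adjusted p = 0.551), without either cultured library (0.29, adjusted p = 0.0627, and 0.20, adjusted p = 0.192), with upper-quartile factors or library totals, with the 5 CPM filter and in a fit of these 2 groups alone. Geminin, the inhibitor of Cdt1, was 28.9 and 28.0 CPM in the thymus libraries, 5.68 and 6.19 in the fresh MLN ones and 28.2 and 32.1 in the cultured ones. Gmnn thus rose by 2.26 ± 0.10 in thymus and 2.35 ± 0.11 in culture, with no overlap with the fresh libraries.

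All 6 MCM2-7 subunits rose in both comparisons, less in culture than in thymus. Mcm2 was 57.6 and 48.1 CPM in fresh MLN, against 176 and 157 in thymus and 139 and 145 in culture (1.66 ± 0.09 and 1.42 ± 0.09). Mcm5 was 201 and 190.2 CPM in thymus, against 54.4 and 45.4 in fresh MLN and 112 and 133 in culture (1.97 ± 0.10 and 1.30 ± 0.10). The subunits spanned 1.29 (Mcm7) to 1.97 (Mcm5) in thymus and 0.49 (Mcm7) to 1.42 (Mcm2) in culture.

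The 6 subunits of ORC, the complex that marks origins, went in different directions. Orc1, the subunit that comes and goes with the cell cycle, was 3.91 and 2.74 CPM in fresh MLN, 12.9 and 9.95 in thymus and 15.1 and 15.1 in culture (1.78 ± 0.18 and 2.18 ± 0.18). Orc6 rose by 1.10 ± 0.09 in thymus and 1.24 ± 0.09 in culture. Orc2, singled out after its values were seen, was 46.7 and 43.5 CPM in the thymus libraries, 37.2 and 36.3 in the fresh MLN ones and 116 and 116 in the cultured ones. Its rise was 0.30 ± 0.07 in thymus and 1.66 ± 0.07 in culture. About 29.8% of its exon bases overlap Nif3l1 on the other strand, which rose in culture by 0.66.

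Orc4 was the one member lower in both comparisons. It stood at 125 and 133 CPM in fresh MLN, against 108 and 107 in thymus and 51.9 and 49.8 in culture, so the 3 groups did not overlap. The log2 fold change was -0.27 ± 0.06 (adjusted p = 0.00452) in thymus and -1.34 ± 0.07 (adjusted p = 6.17e-10) in culture. Orc3 was 91.2 and 84.5 CPM in thymus, against 89.6 and 92.3 in fresh MLN and 75.0 and 76.4 in culture. The thymus and fresh libraries of Orc3 overlapped (-0.05 ± 0.07, adjusted p = 0.578) and the cultured ones were lower (-0.26 ± 0.07, adjusted p = 0.00259). Orc5 was 31.7 and 34.6 CPM in fresh MLN, 29.6 and 30.2 in thymus and 29.4 and 29.6 in culture, and was not called in either comparison (adjusted p = 0.139 and 0.0678). Without the first fresh MLN library Orc5 passed as lower in culture (-0.23, adjusted p = 0.0465), as it did with upper-quartile factors, library totals and the 5 CPM filter.

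Helicase activation (6 genes) had the largest medians of the roles with more than 2 genes, at 3.14 in thymus, where all 6 were higher, and 3.16 in culture, where 4 were higher and 2 not called. Mcm10, which is needed to start unwinding, was 33.3 and 27.8 CPM in the thymus libraries, 1.26 and 1.17 in the fresh MLN ones and 27.4 and 30.1 in the cultured ones (4.65 ± 0.15 and 4.56 ± 0.15). Cdc45, part of the active helicase, was 3.47 and 3.48 CPM in fresh MLN, against 31.7 and 30.1 in thymus and 33.4 and 36.8 in culture (3.15 ± 0.11 and 3.33 ± 0.11). For both genes every thymus and cultured library was several-fold above every fresh one.

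GINS, a complex of 4 proteins that joins the helicase, held 2 genes with large changes and 2 with smaller ones. Gins1 and Gins2 rose by 3.12 ± 0.20 and 3.29 ± 0.16 in thymus and by 2.99 ± 0.20 and 3.43 ± 0.16 in culture. Gins2 shares 67.3% of its exon bases with Gse1 on the other strand, which lay between 69.5 and 81.4 CPM in all 6 libraries. Gins3 was 15.7 and 15.2 CPM in thymus, against 9.25 and 9.99 in fresh MLN and 11.9 and 11.1 in culture (0.68 ± 0.11, adjusted p = 0.000214, and 0.25 ± 0.11, adjusted p = 0.0524). With RLE factors Gins3 passed in culture (0.28, adjusted p = 0.0335). Gins4 was 26.3 and 25.8 CPM in fresh MLN, 33.9 and 35.1 in thymus and 25.8 and 27.1 in culture, so it was higher in thymus (0.41 ± 0.08, adjusted p = 0.000888) and not called in culture (0.02 ± 0.08, adjusted p = 0.813). With library totals alone Gins4 was lower in culture (-0.20, adjusted p = 0.0306).

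Polymerases and primase (9 genes) were all higher in thymus, with a median of 0.82, and in culture 7 were higher, 1 lower and 1 not called, with a median of 1.15. Pole, the catalytic subunit of the leading-strand polymerase epsilon, moved most. Pole was 80.8 and 72.9 CPM in the thymus libraries, 12.3 and 12.1 in the fresh MLN ones and 46.5 and 49.2 in the cultured ones (2.66 ± 0.08 and 1.97 ± 0.08). Pola1, the catalytic subunit of polymerase alpha, was 17.7 and 13.5 CPM in fresh MLN, against 67.0 and 62.5 in thymus and 34.6 and 37.0 in culture (2.05 ± 0.11 and 1.20 ± 0.11). In both genes the cultured libraries lay between the thymus and the fresh ones.

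The 3 members that encode subunits of polymerase delta, which copies the lagging strand, changed by less than 2-fold in both comparisons. Pold1, its catalytic subunit, was 114 and 110.0 CPM in thymus, against 64.2 and 62.5 in fresh MLN and 65.2 and 72.3 in culture. Pold1 was higher in thymus (0.82 ± 0.07) and not called in culture (0.12 ± 0.07, adjusted p = 0.138). Pold3, an accessory subunit, was 65.9 and 63.7 CPM in fresh MLN, 79.0 and 79.1 in thymus and 54.7 and 53.8 in culture. It was the one member higher in thymus (0.29 ± 0.06, adjusted p = 0.00266) and lower in culture (-0.26 ± 0.07, adjusted p = 0.00286). Pold2, another accessory subunit, was higher in both (0.34 ± 0.08 and 0.58 ± 0.08). Pold4, a further accessory subunit that is no member of the set, was not called in thymus (0.04 ± 0.10). In culture Pold4 was higher (0.70 ± 0.095).

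Clamp and clamp loader genes (6) were all higher in both comparisons, with medians of 0.84 and 0.48. Pcna, the sliding clamp, was 155 and 157 CPM in the thymus libraries, 50.6 and 48.5 in the fresh MLN ones and 106 and 113 in the cultured ones (1.65 ± 0.07 and 1.14 ± 0.07). Reads of Pcna may be split with its near copy Pcna-ps2, which averaged 42.9, 12.5 and 30.9 CPM in the 3 groups and so ranked them alike. Rfc2, a small subunit of the loader, moved least. Rfc2 was 51.0 and 51.2 CPM in fresh MLN, against 69.7 and 76.4 in thymus and 58.7 and 58.4 in culture (0.52 ± 0.07 and 0.20 ± 0.07, the latter with adjusted p = 0.0217). Lat2, which overlaps 15.1% of the exon bases of Rfc2 on the other strand, rose by 0.94 in thymus and 3.76 in culture. The strand setting of the counts is not known, so the small change of Rfc2 in culture is uncertain. The culture call of Rfc2 was lost without any one of the 4 fresh and cultured libraries (0.19 to 0.21, adjusted p from 0.0687 to 0.083), and with library totals its sign turned (-0.03). The same 4 omissions ended the call of Rfc3 in culture (0.26 ± 0.10, adjusted p = 0.0328), with adjusted p from 0.0612 to 0.13, as did upper-quartile factors and library totals. With library totals Rfc1 (0.01) and, among the polymerases, Pola2 (0.08) were not called in culture either.

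Fork protection and lagging strand genes (6) were all higher in thymus (median 1.24), and 5 were higher and 1 not called in culture (median 1.22). Clspn, which holds the checkpoint kinase at stalled forks, had the largest change of all members in thymus. Clspn was 55.7 and 49.2 CPM in thymus, against 2.24 and 1.30 in fresh MLN and 48.7 and 56.0 in culture (4.88 ± 0.16 and 4.88 ± 0.16). Lig1, the ligase that seals Okazaki fragments, was 44.2 and 41.5 CPM in fresh MLN, 129 and 128 in thymus and 93.9 and 102 in culture (1.59 ± 0.07 and 1.19 ± 0.07). Fen1, the flap nuclease, had few reads, at 7.15 and 8.06 CPM in the thymus libraries, 3.26 and 2.31 in the fresh MLN ones and 8.45 and 8.80 in the cultured ones (1.44 ± 0.18 and 1.63 ± 0.18). An antisense gene, Gm10143, overlaps 78.8% of the exon bases of Fen1, and Tmem258, also on the other strand, overlaps 5.37%. Tmem258 had 16094 counts over the 6 libraries against 1406 for Fen1, and rose by 0.245 in thymus and 1.49 in culture. The strand setting of the counts is not known, so the level and the changes of Fen1 are uncertain.

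Subunits of RPA, which coats single-stranded DNA, parted in culture. Rpa1, named after its values were seen, rose by 1.04 ± 0.07 in thymus and 1.25 ± 0.07 in culture. Rpa2 was 28.5 and 29.2 CPM in fresh MLN, against 51.9 and 56.8 in thymus and 28.0 and 30.1 in culture. It was higher in thymus (0.91 ± 0.08), and its cultured and fresh libraries overlapped (0.01 ± 0.08, adjusted p = 0.922), though library totals made it lower in culture (-0.21, adjusted p = 0.0254). Rpa3 was 16.4 and 16.5 CPM in thymus, against 11.0 and 11.6 in fresh MLN and 15.2 and 15.4 in culture (0.54 ± 0.10 and 0.44 ± 0.10), the call in culture being lost with library totals (0.21, adjusted p = 0.0653).

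Nucleotide supply genes (5) all rose in both comparisons, with medians of 1.98 in thymus and 2.01 in culture. Rrm2, the subunit that limits ribonucleotide reductase in S phase, was 6.89 and 8.29 CPM in fresh MLN, 151 and 141 in thymus and 214 and 233 in culture (4.27 ± 0.10, adjusted p = 4.15e-12, and 4.88 ± 0.10, adjusted p = 1.08e-13). Rrm1, the large subunit, was 171 and 162 CPM in the thymus libraries, 42.9 and 41.4 in the fresh MLN ones and 167 and 185 in the cultured ones (1.98 ± 0.07 and 2.06 ± 0.07). The 2 subunits of 1 enzyme thus rose by unequal amounts. Tyms, which makes thymidylate, was 13.3 and 10.1 CPM in fresh MLN, against 47.8 and 49.7 in thymus and 45.4 and 49.2 in culture (2.06 ± 0.11 and 2.01 ± 0.11). Tk1, which salvages thymidine, was 40.4 and 40.3 CPM in thymus, against 17.3 and 19.8 in fresh MLN and 41.2 and 45.2 in culture (1.12 ± 0.09 and 1.22 ± 0.09). Dut, which removes dUTP, was 21.2 and 20.9 CPM in fresh MLN, 73.2 and 75.1 in thymus and 63.8 and 70.1 in culture (1.82 ± 0.08 and 1.67 ± 0.08). None of the 5 overlapped between fresh MLN and either other group.

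Chromatin assembly was represented by 2 subunits of CAF-1, which places histones on new DNA. Chaf1a was 45.3 and 42.8 CPM in the thymus libraries, 3.14 and 2.97 in the fresh MLN ones and 45.9 and 49.1 in the cultured ones (3.85 ± 0.10 and 3.96 ± 0.10). Chaf1b was 5.14 and 4.52 CPM in fresh MLN, against 28.1 and 25.5 in thymus and 18.3 and 20.3 in culture (2.47 ± 0.12 and 2.00 ± 0.12). Both rose in both comparisons. Ubxn6, which overlaps 52.5% of the exon bases of Chaf1a on the other strand, lay between 67.3 and 81.0 CPM in the 6 libraries.

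**Figure D2:**
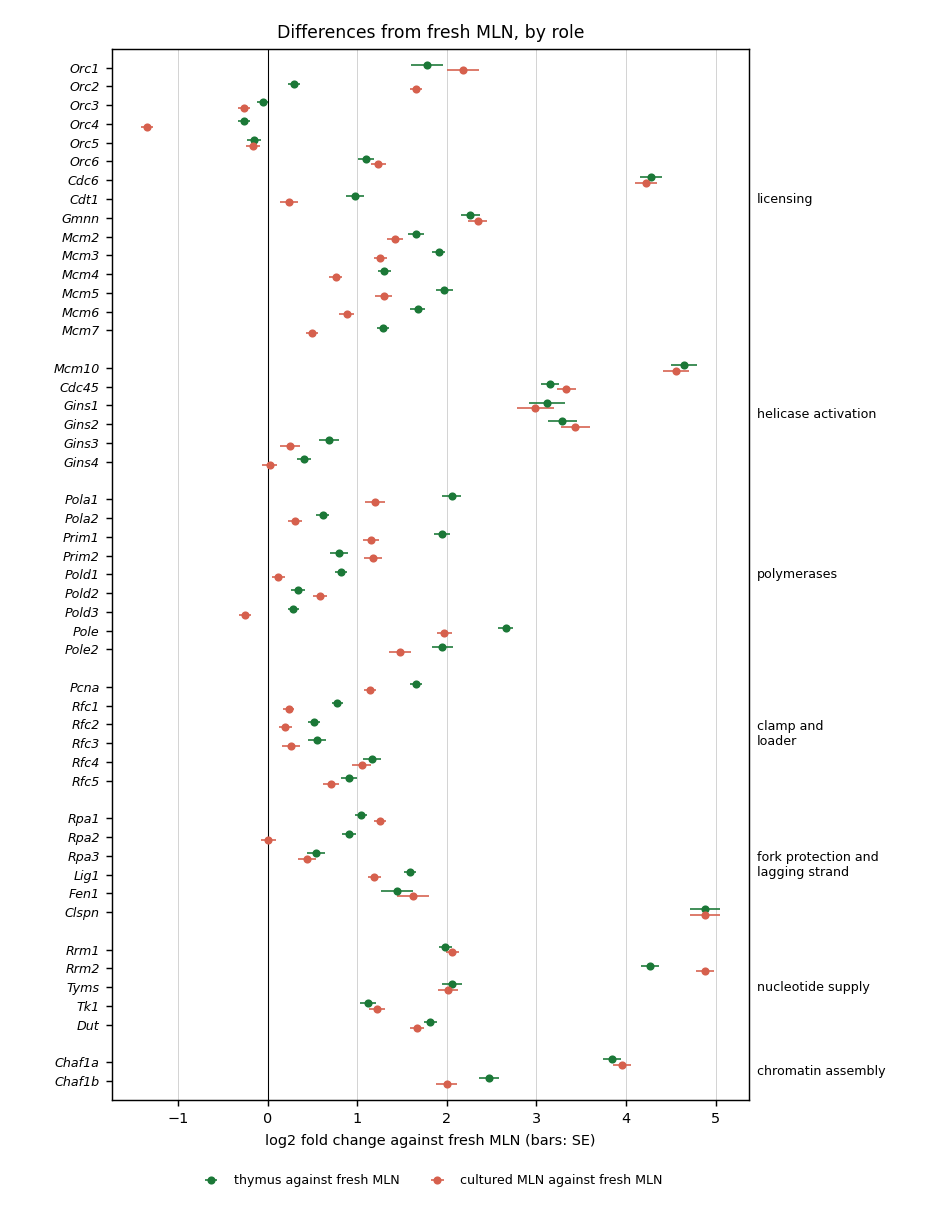
Log2 fold change of each of the 49 genes in thymus (green) and cultured MLN (red) against the same 2 fresh MLN libraries, with SE bars, by role. Values run from -1.34 (Orc4, culture) to 4.88 (Clspn and Rrm2), and each role but chromatin assembly and nucleotide supply has members under 1.

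Markers of other cell types also differed between the groups, in differing directions. Early thymic progenitor markers (10 genes) summed to 800 to 806 CPM in thymus, 320 to 360 in fresh MLN and 241 to 254 in culture, 7 of the 10 being higher and 1 lower in thymus than in fresh MLN. In culture 4 were higher and 4 lower, near the shares of all genes tested (39.4 and 38.1%). In thymus those shares were 25.3 and 22.0%. Kit, which ILC2 also express, made up 698 and 710 CPM of the thymus sums. Myb was also higher in thymus, at 84.6 and 69.1 CPM against 0.771 and 0.691 in fresh MLN. So was Bcl11a, at 6.63 and 4.63 CPM against 0.283 and 0.106. Hhex, Mef2c, Lyl1 and Cd34 were higher in thymus too, and Flt3 was the one lower (-2.61). Higher in culture than in fresh MLN were Cd34 (35.4 and 23.5 CPM against 0.129 and 0) and Myb (19.9 and 23.1 against 0.771 and 0.691). So were Hhex (11.5 and 15.3 against 0.283 and 0.425) and Spi1 (3.83 and 4.08 against 0.797 and 1.41). The lower ones were Kit (-0.91), Flt3 (-3.66), Lmo2 (-3.39) and Bcl11a, which was at 0 in culture. Mast cell and basophil markers (6 genes) summed to 117 to 121 CPM in thymus, 24.3 to 28.5 in fresh MLN and 588 to 868 in culture, with Mcpt4 and Tpsb2 at 0 in thymus and fresh MLN. Single genes made these sums, and they went opposite ways: Mcpt8 was 588 and 866 CPM in culture and under 1 in the other libraries. Cpa3 was 0.0905 and 0.110 CPM in culture (-7.97 against fresh MLN), where the thymus libraries held 117 and 121 and neither fresh library more than 28.2. Macrophage markers (8 genes) summed to 85.2 to 88.5 CPM in fresh MLN, 5.96 to 9.31 in thymus, where Cd14 was at 0, and 20.5 to 21.6 in culture. Cybb gave 72.3 and 66.8 CPM of the fresh MLN sums, whereas Cd68 was not called in thymus and, like Adgre1, was higher in culture (2.05 and 3.76). Their part in the replication results was not tested.

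Cultured MLN and thymus, the groups in which the set was high, were compared directly. In culture 31 members were called (72.7% of all genes tested), 6 of them higher (34.8%) and 25 lower (37.8%), with a median of -0.22 against -0.06 over all genes. Both cultured libraries lay above both thymus ones for 12 members (40.8%) and below for 30 (45.1%). The largest differences were those of Orc2 (1.36 ± 0.07) and Orc4 (-1.08 ± 0.07), and the other 47 differed by less than 2-fold. Scaling bears on this split: library totals alone gave 2 higher and 35 lower, while moving the median of all genes to -0.32 (and to -0.23 in culture against fresh MLN).

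Licensing genes (15 of the 49) and polymerase genes (9 of the 49) made up most of the lower calls. Of the licensing genes 9 were lower, all 6 MCM2-7 subunits among them, from -0.23 (Mcm2) to -0.80 (Mcm6). Cdt1 fell by 0.74 ± 0.10 (adjusted p = 1.88e-05) while geminin was not called (0.08 ± 0.09). Of the 9 polymerase genes 7 were lower, with Pola1 at -0.86 ± 0.10, Prim1 at -0.79 ± 0.08, Pold1 at -0.70 ± 0.07 and Pole at -0.68 ± 0.08, and Prim2 and Pold2 were higher, at 0.38 ± 0.10 and 0.24 ± 0.08. Of the 6 clamp and loader genes 4 were lower, among them Pcna at -0.51 ± 0.06. Rpa2 was lower at -0.90 ± 0.08.

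Nucleotide supply genes did not share this direction: 0 of 5 were lower, 4 were not called and Rrm2 was higher (0.62 ± 0.08, adjusted p = 9.41e-06). With library totals alone, where the median of all genes is -0.32, Rrm1 (-0.18), Tyms (-0.30) and Dut (-0.41) passed as lower and Rrm2 stayed higher. Of the other members with large changes against fresh MLN, Cdc6, Mcm10, Clspn and Chaf1a stood between culture and thymus at -0.06 ± 0.09, -0.09 ± 0.10, 0.00 ± 0.11 and 0.11 ± 0.08, and none was called. Under library totals Cdc6 (-0.32) and Mcm10 (-0.35) passed as lower. Of the 6 higher calls, those of Orc2 and Rrm2 held under all 15 alternatives other than the test against a 2-fold change. Orc1 (0.40, adjusted p = 0.0328) was lost without the second thymus library (0.22, adjusted p = 0.249), the first cultured library (0.40, adjusted p = 0.104) or the second (0.41, adjusted p = 0.0938). Pold2 was lost without the second thymus (0.21, adjusted p = 0.0767) or second cultured library (0.18, adjusted p = 0.138), and Rpa1 (0.21) without the second cultured library (0.18, adjusted p = 0.0918). With library totals the calls of Orc1, Prim2 (0.12, adjusted p = 0.29), Pold2 and Rpa1 were lost. Of the 25 lower calls 22 held under the same 15 alternatives. Those of Mcm2, Orc3 and Rfc3 were lost without the first thymus library (adjusted p = 0.164, 0.0684 and 0.173) or the first cultured one (0.139, 0.0727 and 0.105), and Mcm2 and Rfc3 also without the second cultured library (0.0629 and 0.0547). All 3 were lost with DESeq2 (adjusted p = 0.106, 0.0712 and 0.106), and Mcm2 and Rfc3 with RLE factors (0.0788 and 0.0519). With RLE factors Cdc45 (0.24, adjusted p = 0.0204) and Orc6 (0.20, adjusted p = 0.0447) passed as higher in culture, as did Cdc45 in the fit of these 2 groups alone (0.22, adjusted p = 0.0305).

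**Figure D3:**
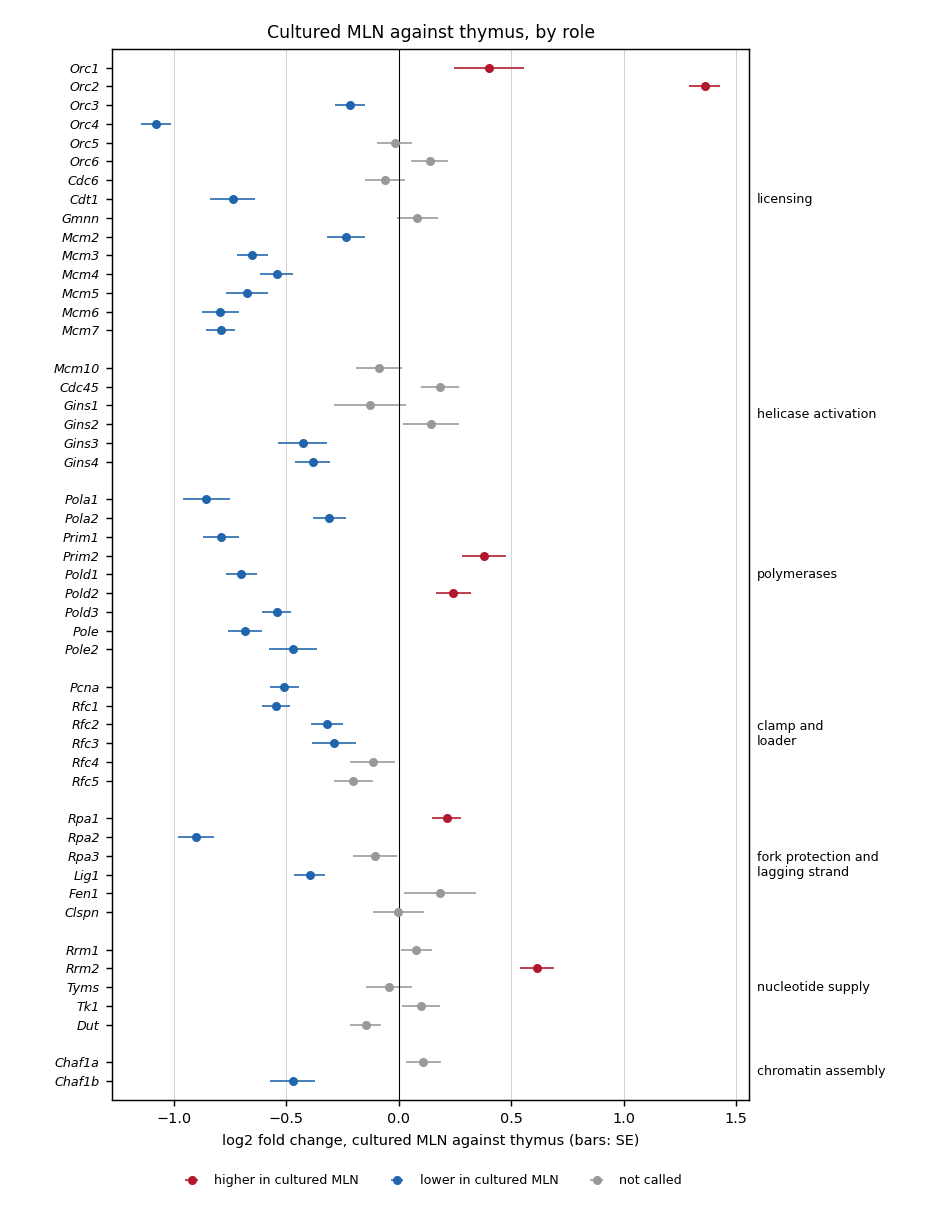
Log2 fold change of each of the 49 genes in cultured MLN against thymus, with SE bars, by role; red is higher, blue lower and grey not called at an adjusted p under 0.05. Blue points fill all 6 MCM2-7 rows and 7 of the 9 polymerase rows, and no blue point lies among the 5 nucleotide supply genes.

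Levels of different genes were set side by side as CPM per kilobase of merged exons, a scale that corrects for length. The 49 genes summed to 902 and 883 CPM per kb in the thymus libraries, 364 and 358 in fresh MLN, and 721 and 777 in culture. Licensing genes took the largest share of that sum in every library, 42.3 to 43.0% in thymus, 43.2 to 43.5% in fresh MLN and 38.1 to 38.4% in culture. Among licensing, polymerase and nucleotide supply genes, nucleotide supply differed most in proportion. Its 5 genes took 12.8% in thymus, 5.68 to 5.84% in fresh MLN and 18.6 to 18.9% in culture. Rrm2 carried much of this: without it the other 4 genes took 5.03 and 5.05% of the remaining sum in fresh MLN, against 7.26 and 7.43% in thymus and 8.84 and 9.04% in culture. Polymerases took 11.8% in thymus, 15.5 to 15.9% in fresh MLN and 10.6 to 10.7% in culture. Chromatin assembly too was lowest in fresh MLN, at 0.363 to 0.399%, with 1.16 to 1.23% in thymus and 1.26 to 1.27% in culture. With lengths of the longest transcript the nucleotide shares were 13.6, 6.47 and 19.5% on the group means, in the same order.

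**Figure D4:**
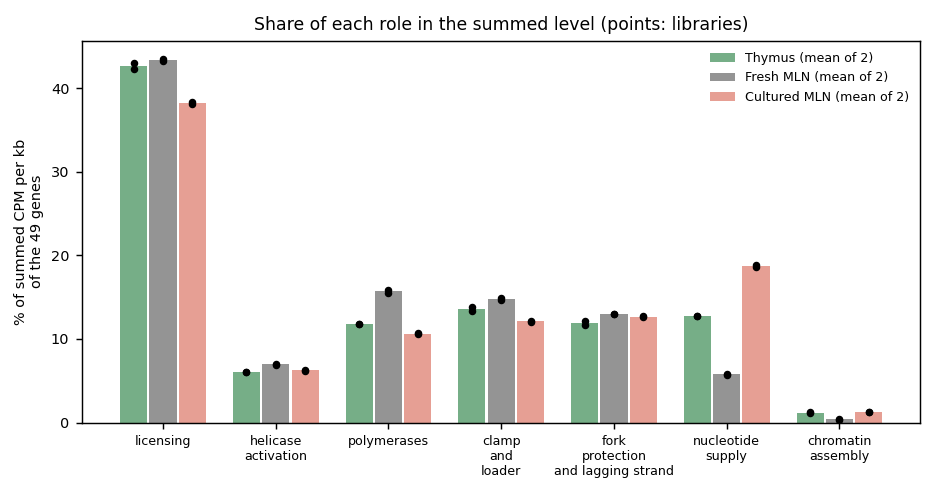
Share (%) of each role in the summed CPM per kb of the 49 genes; bars are means of 2 libraries and black points the libraries. Nucleotide supply stands at 12.8% in thymus, 5.76% in fresh MLN and 18.8% in culture, and licensing between 38.3 and 43.4%.

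Ratios of gene pairs, chosen after their values were seen, restate differences given above within each library and add no separate support. Rrm2 per kb stood at 3.5 and 3.47 times the level of Rrm1 in thymus and 5.1 and 5.02 times in culture, but at 0.638 and 0.795 times in fresh MLN. By rank Rrm2 went from 34 of the 49 in fresh MLN to 4 in thymus and 1 in culture. The ratio of Cdt1 to its inhibitor geminin was highest in fresh MLN, at 2.76 and 3.27, with 1.22 and 1.26 in thymus and 0.726 and 0.68 in culture. Orc2 to Orc4 was 4.32 and 4.5 in culture, against 0.837 and 0.788 in thymus and 0.577 and 0.527 in fresh MLN. With the longest transcript as length, Rrm2 and Rrm1 averaged 66.55 and 30.4 CPM per kb in thymus. They averaged 101.9 and 32.09 in culture and 3.459 and 7.703 in fresh MLN. Orc2 and Orc4 averaged 32.54 and 12.5 in culture by that length. The size of such ratios depends on the length used, while their order among groups does not.

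With merged exons, complexes differed in how even their subunits were. Among MCM2-7 the highest subunit was 2.08 to 2.9 times the lowest in all 6 libraries. Among the 3 polymerase delta genes of the set it was 1.1 to 1.92 times. The spread depends on the length used. On thymus means MCM2-7 ran from 23.94 (Mcm2) to 64.47 (Mcm6) CPM per kb of merged exons. With the longest transcript MCM2-7 ran from 42.89 (Mcm7) to 69.08 (Mcm6), a narrower range. GINS was uneven, above all in fresh MLN, where Gins4 was 72.4 and 59.0 times the level of Gins2, against 8.54 and 9.08 times in thymus and 6.28 and 5.95 times in culture. Gins2 rests on 43 and 50 reads in fresh MLN. Its overlap with Gse1, with the strand setting not known, leaves its level per kb uncertain in every group. In ORC the lowest subunit was Orc1 in every library, and the highest was Orc3 or Orc4 in thymus, Orc4 in fresh MLN and Orc2 in culture. By group mean, 31 members ran from thymus through culture down to fresh MLN and 14 from culture through thymus down to fresh MLN. Pold3 ran from thymus through fresh MLN to culture, and Orc3, Orc4 and Orc5 were highest in fresh MLN.

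Genes around the set were taken from lists by function. The shares of all genes tested to set beside their counts are 25.3% higher and 22.0% lower in thymus, and 39.4% higher and 38.1% lower in culture, all against fresh MLN. Of 31 other replication genes 23 were higher and 2 lower in thymus, and 22 higher and 7 lower in culture, with medians of 1.24 and 0.93. Top2a, the topoisomerase that untangles copied DNA, was 553 and 514 CPM in thymus, against 26.7 and 21.4 in fresh MLN and 434 and 493 in culture (4.47 ± 0.11 and 4.27 ± 0.11). Dtl, the adaptor that marks Cdt1 for destruction, rose by 4.46 ± 0.13 and 3.72 ± 0.13, Dna2, a nuclease of flaps, by 4.06 ± 0.15 and 3.30 ± 0.16, and Ticrr, which helps fire origins, by 3.86 ± 0.15 and 3.73 ± 0.15. The smallest called change in both was that of Mcmbp, which binds MCM proteins, at 0.36 ± 0.06 in thymus and -0.19 ± 0.06 in culture. Donson and Rnaseh2c were lower in both comparisons, at -0.49 and -0.43 in thymus and -0.83 and -1.73 in culture. Chtf8 (-0.68), Rnaseh2a (-0.41), Mcm9 (-1.45), Mcmbp and Rif1 (-0.92), a regulator of origin timing, were also lower in culture.

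Among 17 other genes of deoxynucleotide supply, 11 were higher and 4 lower in thymus and 11 higher and 5 lower in culture (medians 0.48 and 0.75). Of these counts the lower ones are near or under the shares of all genes. Dck, which salvages deoxycytidine, rose by 2.69 ± 0.09 and 1.84 ± 0.09, and Mthfd2, a mitochondrial folate enzyme, by 1.45 ± 0.09 and 3.10 ± 0.09. The genes lower in both comparisons were Rrm2b (-0.58 and -0.60), the ribonucleotide reductase subunit of non-dividing cells, the mitochondrial kinases Tk2 (-0.78 and -1.66) and Dguok (-0.44 and -1.41), and Samhd1. Dtymk, the thymidylate kinase, was higher in thymus (0.35 ± 0.09, the smallest change called there) and lower in culture (-0.58 ± 0.09), and Guk1 had the smallest called change in culture (0.31 ± 0.08).

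Samhd1, which breaks deoxynucleotides down, had the highest CPM per kb of these 17 genes in the fresh cells of both organs. It was 1743 and 1802 CPM in the thymus libraries, 2603 and 2944 in the fresh MLN ones and 141 and 135 in the cultured ones, and the 3 groups did not overlap. Its log2 fold change was -0.65 ± 0.08 (adjusted p = 2.24e-05) in thymus and -4.33 ± 0.09 (adjusted p = 1.56e-13) in culture, and it was also lower in culture than in thymus (-3.69 ± 0.09).

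**Figure D5:**
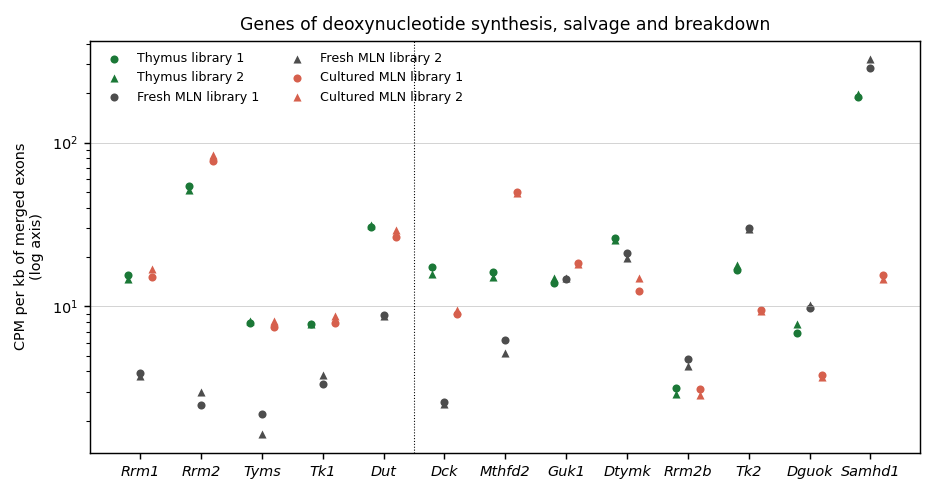
CPM per kb (log axis) in each library for the 5 nucleotide supply members (left of the dotted line) and 8 other genes of deoxynucleotide metabolism. Dck and Mthfd2 lie lowest in fresh MLN like the members, whereas Rrm2b, Tk2, Dguok and Samhd1 lie highest there.

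Precursors of both RNA and DNA come from de novo purine and pyrimidine synthesis. Of 17 genes of that list 12 were higher and 0 lower in thymus (median 0.34), and 8 higher and 2 lower in culture (median 0.07), where the share higher is near that of all genes. In thymus the changes ran up to 1.01 ± 0.12 for Ctps, with Paics at 0.99 ± 0.06 and Umps at 0.93 ± 0.10, and the smallest called was Gmps at 0.29 ± 0.08. In culture Impdh1, which commits purines to guanine nucleotides, was 260.1 and 249 CPM against 45.8 and 50.6 in fresh MLN (2.40 ± 0.07), Umps rose by 1.42 ± 0.10, and the smallest called was Ppat at 0.45 ± 0.08. Prps2 (-1.79 ± 0.08) and Dhodh (-0.58 ± 0.10) were lower in culture and not called in thymus (0.11 and -0.01).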

How the data were processed

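The deposited files hold a raw count of reads per Ensembl gene for each library, as the authors made them; the values are whole numbers, and 0 entries name anything but a gene. HTSeq 0.5.3p9 and the builds mm9 and NCBIM37 appear in the submitters' processing notes, and per the labels' protocols a stranded mRNA kit was used. Neither aligner nor strand setting is given in the sources used here, which makes the counts of genes with an overlapping partner on the opposite strand uncertain. Symbols and exon lengths came from GENCODE M21 by identifier, with 32919 of 37991 identifiers matched, and coordinates of promoter windows are those of RefSeq on GRCm38.p6.

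Counts were fitted in R 4.3.3 with edgeR 4.0.16 (filterByExpr, TMM factors from 0.894 to 1.07, quasi-likelihood F test, two-sided) over all 6 libraries, with Benjamini-Hochberg adjustment over 16231 genes. A gene is called at an adjusted p under 0.05, "higher", "lower", "rose" and "fell" are used of called genes, and every adjusted p of a gene is from this fit unless another is named. CPM values are counts scaled to library size by the TMM-scaled totals, and the SE is the absolute log2 fold change over the square root of F. The 2 libraries of a group differed by more than sampling noise, but the labels do not say whether they are separate animals or cultures. The p values set a group difference against the spread between libraries, which may be technical. That spread was estimated over all groups together and moderated across genes (residual degrees of freedom 3, prior degrees of freedom 9.54). With 2 against 2 libraries an exact permutation test of 1 value cannot pass 0.05, and none was run. The script was tested on simulated data.

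Members and lists were chosen with earlier results of these data known. Values per library were printed for 21 members named in advance, for those with the largest and smallest change in each role, and for each member lower or not called against fresh MLN. From the 6 other lists the 3 called genes with the largest change, the smallest called at 5 CPM or more, and genes against the list's direction were named. A gene that this rule takes is not reported here. Alternatives were other scaling factors, filters, a 2-fold test, a replicate block, fits of 2 groups, DESeq2 1.42.0, limma-voom (limma 3.58.1), leaving out each library, and longest-transcript lengths.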

Additional observations from a re-analysis of the deposited data

How the results depend on the processing

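Apart from the test against a 2-fold change, 15 alternatives were run on the counts. All 46 higher calls and the 1 lower call in thymus against fresh MLN held in each, as did 35 of the 41 higher and all 3 lower calls in culture against fresh MLN. Against thymus, 2 of 6 higher and 22 of 25 lower calls of culture held in each. The members' median stayed between 1.32 and 1.64, 0.97 and 1.25, and -0.47 and -0.16 in these comparisons, in that order. Leaving out 1 library gave 47 members called in thymus against fresh MLN (46 higher, 1 lower), 41 to 44 in culture against fresh MLN (38 to 41 higher, 3 to 4 lower) and 27 to 31 in culture against thymus (3 to 6 higher, 22 to 25 lower, with 3 higher without the second cultured library). The test against a 2-fold change called 27 members in thymus against fresh MLN (27 higher, 0 lower), 1 lower member in culture against fresh MLN, and 1 member in culture against thymus (1 higher, 0 lower). Library totals alone gave 6 lower members in culture against fresh MLN and 2 higher ones against thymus. For 9 members (Cdc45, Cdc6, Chaf1a, Clspn, Fen1, Gins1, Gins2, Mcm10, Orc1) the fresh MLN mean is under 4 CPM, which limits the precision of their folds.

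The median of the members in CPM per kb was 12.7 in thymus, 5.37 in fresh MLN and 10.0 in culture with merged exons, and 20.1, 8.85 and 16.5 with the longest transcript, which is shorter than the merged exons for 47 of the 49. The labels give each group a replicate 1 and 2 without saying that they share an animal or day, and deviations of replicate 1 correlated at 0.03, 0.08 and 0.24 between groups. A replicate block gave 47, 45 and 32 members called; it added Gins3 in culture against fresh MLN (0.25, adjusted p = 0.0471) and Rfc5 in culture against thymus (-0.21, adjusted p = 0.028).

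Sign changes were small and nearly all of uncalled genes. With library totals alone the log2 fold change turned, in culture against fresh MLN, for Gins4 (-0.202), Pold1 (-0.105), Rfc2 (-0.028) and Rpa2 (-0.214), and against thymus for Orc6 (-0.121), Gmnn (-0.176), Cdc45 (-0.075), Gins2 (-0.114), Pold2 (-0.016), Rpa1 (-0.046), Fen1 (-0.075), Rrm1 (-0.180), Tk1 (-0.161) and Chaf1a (-0.149). In culture against fresh MLN, Gins4 (-0.003) and Rpa2 (-0.016) turned with upper-quartile factors and Rpa2 with the 5 CPM filter (-0.005). In culture against thymus, Orc5 (0.038), Clspn (0.055) and Tyms (0.014) turned with RLE factors and by the same amounts with DESeq2, Orc5 (0.018) and Clspn (0.034) in the fit of 2 groups, and Clspn with the replicate block (0.001). Leaving out 1 library spread Orc3 in thymus against fresh MLN from -0.10 to 0.011. It spread Gins4 from -0.007 to 0.063 and Rpa2 from -0.034 to 0.063 in culture against fresh MLN. Against thymus it spread Mcm10 from -0.218 to 0.044, Clspn from -0.102 to 0.095, Tyms from -0.098 to 0.015 and Gmnn from -0.010 to 0.174. The cause of these shifts was not tested.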

Other observations

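Histone chaperones and maintenance methylation act on DNA behind the fork. Of 10 genes of that list 9 were higher and 0 lower in thymus (25.3 and 22.0% of all genes tested), and in culture 7 were higher and 1 lower (39.4 and 38.1%) than in the same fresh MLN libraries. Uhrf1, which brings DNA methylation to new strands, reached 162 and 143 CPM in thymus and 129 and 137 in culture, with 6.22 and 4.75 in fresh MLN. Its log2 fold changes were 4.79 ± 0.11 and 4.60 ± 0.11. The histone chaperone genes Asf1b and Asf1a parted: Asf1b rose by 3.58 ± 0.12 and 3.55 ± 0.12, while Asf1a was not called in thymus (0.08 ± 0.09) and lower in culture (-0.97 ± 0.09). Nasp rose by 1.13 ± 0.08 in thymus, and the smallest called changes were those of Supt16 in thymus (0.39 ± 0.07) and Rbbp4 in culture (0.21 ± 0.06).

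Repair and mitochondrial polymerases were counted in the same way. Of 12 genes of repair and translesion synthesis 3 were higher and 2 lower in thymus, and 5 higher and 5 lower in culture, shares near those of all genes. Polq, a polymerase of end joining, rose by 1.34 ± 0.12 and 1.49 ± 0.12, and Polh, which copies past sunlight damage, by 0.83 ± 0.09 and 1.08 ± 0.09. Polm (-0.57) and Rev1 (-0.47) were lower in thymus, Poli (-1.32) and Lig4 (-1.13) in culture, and Poll had the smallest called change of each (0.38 and -0.28). Of 9 mitochondrial replication genes (medians -0.05 and -0.63) 0 were higher in either comparison, with 3 lower in thymus (Top1mt at -0.53, Polg at -0.33, Polrmt at -0.19) and 6 lower in culture by edgeR. Polrmt (-1.12), Polg2 (-1.01) and Twnk (-0.91) had the largest falls in culture and Ssbp1 (-0.54) the smallest called.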
